A study of Mus musculus with 96 samples.

Results

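The data concern the REV-ERB genes Nr1d1 and Nr1d2 and their neighbour Thra, which were chosen by gene symbol. They make up 3 of the 25095 gene symbols and 4 of the 42322 transcript rows in each table, because Thra had 2 rows. All 4 rows passed the filter on low values in all 4 tables, which asked for more than 5 RPKTM in at least 3 libraries. RPKTM is the conventional RPKM, a read count scaled by transcript length and library size, multiplied by 10.

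The study asked how the clock in hepatocytes acts on other cells of the liver, and it sequenced RNA of hepatocytes and of liver macrophages (LMs) in 96 libraries. There were 3 replicate libraries at each of ZT4, ZT10, ZT16 and ZT22, where ZT0 is lights on and ZT12 is lights off. All groups were male C57BL/6J mice given a high fat and sucrose diet for 4 weeks. The Control libraries came from mice with floxed alleles that received the virus AAV-TBG-GFP, and the knockout libraries from mice that received AAV-TBG-CRE at 8 weeks of age. RevDKO (ReverbhDKO in the labels) denotes the deletion of Nr1d1 and Nr1d2, RevScapTKO (Reverb/ScaphTKO) the deletion of both together with Scap, and ScapKO (ScaphKO) the deletion of Scap alone. SCAP escorts the SREBP transcription factors, which drive lipid synthesis, to the Golgi for activation. The TBG promoter is active in hepatocytes, so the LMs were not themselves the target of the deletion. The titles of the ScapKO hepatocyte libraries name hepatocytes while their cell type field names LMs, and the titles were followed. Control, RevDKO and RevScapTKO of each cell type share a table of 36 libraries. The 12 ScapKO libraries of each cell type stand in tables of their own with no Control, so no genotype was tested against ScapKO.

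REV-ERBα and REV-ERBβ, the proteins of Nr1d1 and Nr1d2, are nuclear receptors that repress transcription by recruiting the corepressor NCoR and the histone deacetylase HDAC3. In the core clock, BMAL1 and CLOCK switch on Nr1d1 and Nr1d2 by day, and the REV-ERBs in turn repress Arntl, the gene of BMAL1. REV-ERBs also repress each other's and their own genes, and in the liver they hold down genes of lipid synthesis. Thra encodes the thyroid hormone receptor α. Its short transcript encodes the form that binds the hormone, and its long transcript encodes a form with a different end that does not bind it. The last exon of the long form lies on the opposite strand to the last exon of Nr1d1.

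In mm9, the build of the tables, Nr1d1 (NM_145434) covers chromosome 11, 98629246 to 98636691, on the minus strand. The long Thra row (NM_001313983) covers 98603099 to 98630320 of the same chromosome on the plus strand, and the short Thra row (NM_178060) covers 98603099 to 98626427. Nr1d2 (NM_011584) lies on chromosome 14, 19036570 to 19071620, minus strand. In the GENCODE annotation of that build, exons of the long Thra form and of Nr1d1 share 263 bases, 98629471 to 98629733. All 263 are coding in Thra, and 197 are coding in Nr1d1. They make up 10.7% of the length of the long Thra row and 9.55% of that of Nr1d1. The short Thra row ends 2818 bases before Nr1d1 and shares 0 exonic bases with it. The Thra forms share 1540 exonic bases, while 912 belong only to the long form and 706 only to the short form. Whether reads were counted by strand is not given in the sources used here, so reads of Nr1d1 and of the long Thra form cannot be told apart within the overlap.

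The place where the Thra forms part shows what separates the rows. Capitals mark the last exon of the long form (98629471 on) and the continuation of the short form within its own last exon, after 15 shared bases that start at 98625705.
Thra long: aagctgctgatgaagGAGAGAGAAGTGCAG
Thra short: aagctgctgatgaagGTGACTGACCTCCGC
The middle of the shared exonic stretch, chr11:98629588-98629617 in mm9, reads as follows on the Thra strand and on the Nr1d1 strand, the same bases being transcribed into both genes.
As Thra: ggtccgcaggtccggcagcttgagcagcag
As Nr1d1: ctgctgctcaagctgccggacctgcggacc

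The 250 bases before the start of Nr1d1 and of Nr1d2 are shown because both genes changed in level by day and by genotype. They come from RefSeq on GRCm38.p6, chr11:98775378-98775627 and chr14:18239107-18239356, both on the minus strand. Capitals mark the only match in each window to the 4 motifs searched.
Nr1d1: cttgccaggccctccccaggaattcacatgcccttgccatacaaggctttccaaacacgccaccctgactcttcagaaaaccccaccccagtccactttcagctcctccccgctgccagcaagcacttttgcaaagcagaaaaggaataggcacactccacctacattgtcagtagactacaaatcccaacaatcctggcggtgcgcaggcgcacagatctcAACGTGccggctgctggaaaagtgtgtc
Nr1d2: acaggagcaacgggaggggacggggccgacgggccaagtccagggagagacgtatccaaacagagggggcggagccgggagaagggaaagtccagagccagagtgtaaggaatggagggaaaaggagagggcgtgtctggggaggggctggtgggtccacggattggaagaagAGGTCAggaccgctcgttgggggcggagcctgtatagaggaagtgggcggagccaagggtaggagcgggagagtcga
Windows of 300 bases (the 250 above and the next 50) were searched on both strands for the E-box CACGTG and its variant CACGTT, which BMAL1 and CLOCK bind, for AGGTCA, the core that nuclear receptors such as REV-ERB bind, and for the D-box TTATGTAA, which DBP and NFIL3 bind. The Nr1d1 window held CACGTT, read on the other strand, at base -28 from the start. The Nr1d2 window held AGGTCA at base -77. Of 32851 promoter windows of the same length, 7.15% held CACGTG, 4.68% CACGTT, 16.3% AGGTCA and 0.938% TTATGTAA. A match describes letters and not a bound site. Thra was not among the promoters used here.

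**Figure D1:**
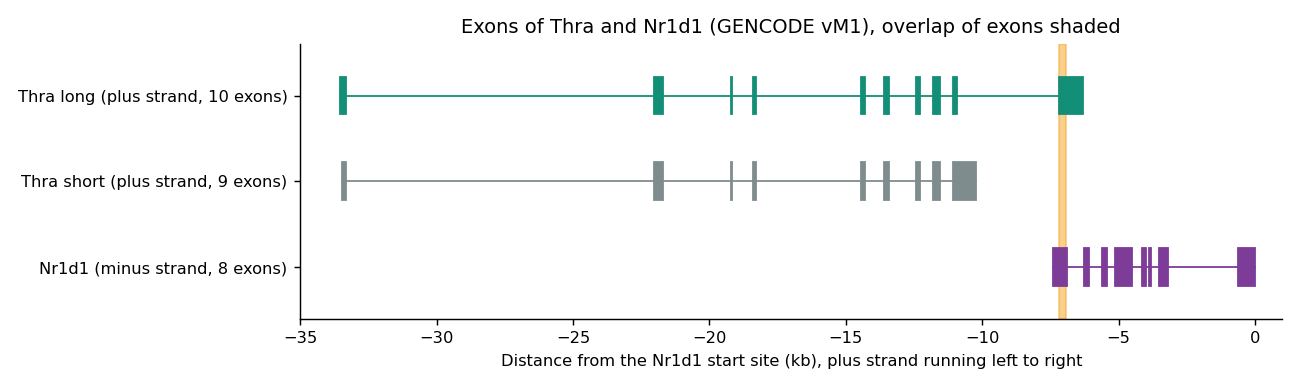
Map of the Thra and Nr1d1 transcripts along chromosome 11, with boxes for exons, lines for introns and the horizontal axis in kilobases from the start site of Nr1d1. The last exon of Thra long overlaps the last exon of Nr1d1 by 263 bases, while Thra short ends 2818 bases before Nr1d1.

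Each table had been quantile normalized, so that all its libraries held one and the same set of values, and the depth of each library is unknown. In the 36 hepatocyte libraries of Control, RevDKO and RevScapTKO, 8 of 8 hepatocyte markers had a median over 5 RPKTM. Their summed level was 356683 RPKTM or more in each library. The macrophage markers (10 of 10 with a median over 5 RPKTM) had a higher sum in RevScapTKO hepatocyte libraries. Its median was 2816 RPKTM (921 to 5983) against 841 (231 to 2985) in Control and 1044 (361 to 2337) in RevDKO. Sums of the 4 endothelial and 4 stellate markers were also higher there, with medians of 1645 (991 to 2455) and 622 (248 to 1021) RPKTM against 910.3 (349 to 2013) and 277 (115 to 808) in Control and 1027 (637 to 1609) and 387 (182 to 726) in RevDKO, and their part in the results was not tested. In the LM table the summed hepatocyte markers, 27888 RPKTM or more, exceeded the sums of the macrophage markers, 3025 to 37315, over most of their range. Alb took more than 10% of the column sum in 3 LM libraries, namely Control ZT16 replicate 1 (13.7%), Control ZT22 replicate 1 (27.5%) and RevScapTKO ZT22 replicate 3 (13.7%). In bulk RNA, fewer cells of a type and less RNA per cell cannot be told apart.

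In hepatocytes Nr1d1 was not lower in the libraries labelled RevDKO and RevScapTKO than in Control. It was higher in both, and the differences past the threshold at single times were those in the dark. The study itself reports a marked fall of both REV-ERB transcripts in knockout hepatocytes, shown as relative mRNA. The row covers the whole transcript, the deleted exons are not given in the sources used here, and the value therefore does not check the deletion. RevDKO and RevScapTKO below mean the libraries so labelled, and every direction drawn from them carries that limit.

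In Control hepatocytes Nr1d1 measured 113, 300.1 and 358 RPKTM in the 3 libraries at ZT4, and 102, 81.0 and 75.7 at ZT10. At ZT16 the libraries held 16, 12.1 and 6.14 RPKTM, and at ZT22 5.09, 16.2 and 3.57. All 6 Control libraries of the dark thus lay below all 6 of the light. In RevDKO the values at ZT4 were 215, 158 and 359 RPKTM, and at ZT10 326, 131 and 106. At ZT16 they were 65.4, 62.5 and 70.5 RPKTM, and at ZT22 39.9, 76.3 and 43.5. The lowest RevDKO library of the dark therefore stood above the highest Control library of the dark. In RevScapTKO, Nr1d1 measured 138, 231 and 215 RPKTM at ZT4, and 216, 92.2 and 139.6 at ZT10. At ZT16 it measured 109, 55.3 and 124 RPKTM, and at ZT22 51.2, 107 and 204. Here light and dark libraries overlapped.

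The rise at the trough was larger than the spread between replicates and the level at ZT4 showed no such difference. On the log2(RPKTM + 1) scale, Nr1d1 differed between RevDKO and Control by 0.00 (SE 0.50) at ZT4 and by 0.95 (SE 0.50, limma adjusted p = 0.684) at ZT10. It was 2.52 higher at ZT16, 5.74-fold (limma adjusted p = 0.0115), and 2.734 higher at ZT22, 6.65-fold (limma adjusted p = 0.00399). The RevDKO call at ZT16 was lost without Control ZT16 replicate 3 or any of the 3 RevDKO libraries of that time, with differences from 2.167 to 2.79 when 1 library was left out. That at ZT22 was lost without Control ZT22 replicate 1 or RevDKO ZT22 replicate 2, with differences from 2.35 to 3.30. RevScapTKO was -0.27 from Control at ZT4 and 0.71 above it at ZT10, neither past the threshold. It was 2.978 higher at ZT16, 7.88-fold (limma adjusted p = 0.00025), and 3.74 higher at ZT22, 13.4-fold (limma adjusted p = 7.51e-06). Of all 26235 transcripts tested, those called higher in RevDKO made up 0.126% at ZT16 and 0.24% at ZT22. For RevScapTKO against Control they made up 0.881% and 1.17% at these times.

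The same held for levels in RPKTM without a logarithm. In the dark (ZT16 and ZT22) the Control level of Nr1d1 was 9.85 ± 5.64 RPKTM, that of RevDKO 59.7 ± 14.8 and that of RevScapTKO 108 ± 55.6 (SD, n = 6 each). Labels were permuted within time points in an exact two-sided permutation test, whose 400 arrangements give no p below 0.005, and 24 such comparisons were adjusted together. RevDKO was 49.8 RPKTM higher than Control in the dark (exact p = 0.005, adjusted p = 0.024) and RevScapTKO 98.6 higher (exact p = 0.005, adjusted p = 0.024). In the light the differences were 44.2 RPKTM (exact p = 0.495) and 0.48 RPKTM (exact p = 1). All 6 dark libraries were higher than all 6 of Control for 0.858% of transcripts in RevDKO and for 2.06% in RevScapTKO.

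**Figure D2:**
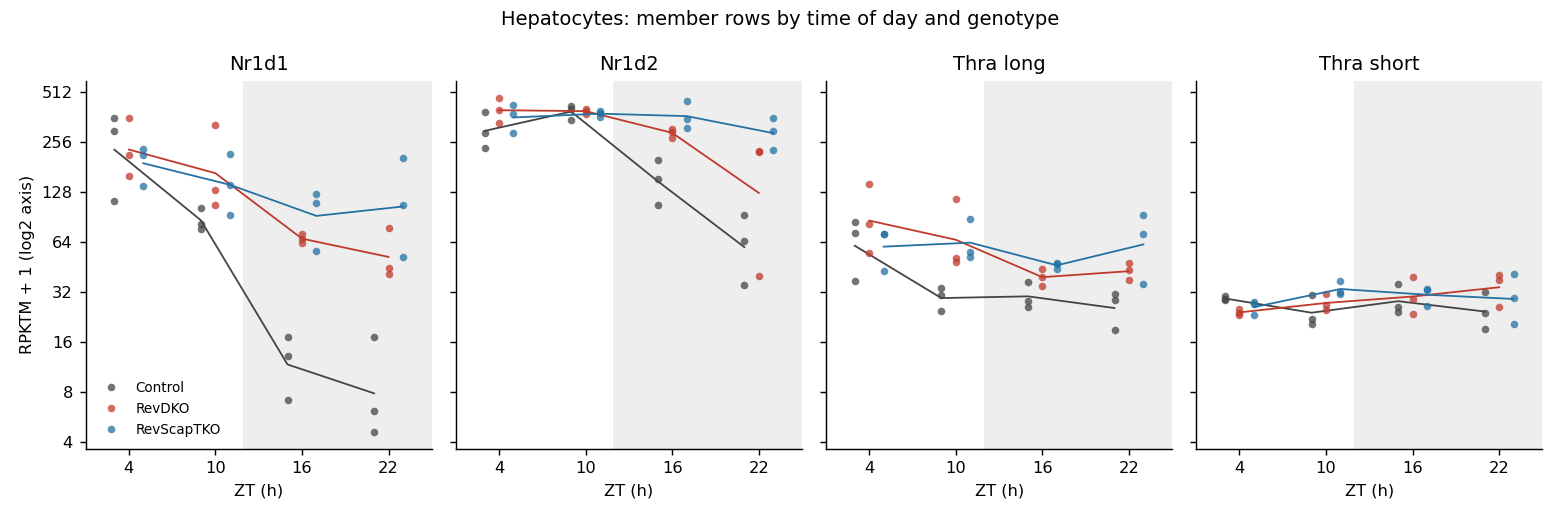
Levels of Nr1d1, Nr1d2 and the Thra rows in hepatocytes against zeitgeber time in hours, on a log2 axis of RPKTM + 1. Points are the 3 libraries of each genotype and time, with the genotypes set side by side within a time for sight, lines join the means of the plotted log2 values, and grey marks the dark. The mean of Nr1d1 in RPKTM falls to 8.28 at ZT22 in Control, to 53.2 in RevDKO and to no less than 96.3 in RevScapTKO, while Thra short libraries stay between 18.02 and 39.8.

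Averaged over the 4 times, Nr1d1 was 1.55 higher in RevDKO than in Control (SE 0.25, 2.93-fold, limma adjusted p = 8.53e-05) and 1.79 higher in RevScapTKO (SE 0.25, 3.46-fold, limma adjusted p = 2.08e-06). The share of transcripts called was 4.14% for RevDKO against Control, 1.92% being higher, and 35.1% for RevScapTKO against Control, 18% being higher. Between RevScapTKO and RevDKO, where 25.9% of transcripts were called, Nr1d1 differed by 0.24 (SE 0.25, limma adjusted p = 0.505). With the macrophage marker score as a covariate, the rise of Nr1d1 in RevScapTKO was 1.89 (limma adjusted p = 0.000663).

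Nr1d2, the paralogue that encodes REV-ERBβ, was the more abundant row per length and its changes were smaller. In Control hepatocytes it measured 235, 292 and 388 RPKTM at ZT4, and 405, 422 and 348 at ZT10. It fell to 200.3, 153 and 106 RPKTM at ZT16 and to 63.8, 92.0 and 34.2 at ZT22. In RevDKO it held 474, 332 and 402 RPKTM at ZT4, and 404, 379 and 396 at ZT10. At ZT16 it held 294, 271 and 308 RPKTM, and at ZT22 225, 39.2 and 222. RevDKO ZT22 replicate 2 stood apart from the other RevDKO libraries for this gene, and all other dark RevDKO libraries lay above the highest Control library of the dark. In RevScapTKO all 12 libraries lay between 228 and 450.3 RPKTM, and the lowest of them was above the highest Control library of the dark, 200.3.

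Over the day Nr1d2 was 0.95 higher in RevScapTKO than in Control (SE 0.19, 1.94-fold, limma adjusted p = 0.000323). With the macrophage marker score as a covariate this was 0.84 and no longer past the threshold (limma adjusted p = 0.0724), and the part of these cells in the result was not otherwise tested. In RevDKO the difference from Control, 0.62 (SE 0.19), did not pass the threshold (limma adjusted p = 0.0648), whereas without RevDKO ZT22 replicate 2 it was 0.83 and passed it. It also passed without Control ZT4 replicate 3 or Control ZT22 replicate 2. At ZT22, RevScapTKO was 2.28 above Control, 4.87-fold (limma adjusted p = 0.000337). At ZT16 it was 1.305 above (limma adjusted p = 0.0609). The dark level of Nr1d2 averaged 108 RPKTM for Control, 227 for RevDKO and 333 for RevScapTKO. The difference of RevScapTKO from Control was 225 RPKTM (exact permutation test, adjusted p = 0.024) and that from RevDKO 106 RPKTM (adjusted p = 0.024 by the same exact test). The latter ran from 75.5 to 123 RPKTM with 1 library left out, and it lost its call without any RevDKO library of ZT16, RevDKO ZT22 replicate 2 or RevScapTKO ZT22 replicates 2 or 3. The difference of RevDKO from Control, 118 RPKTM, had an exact permutation p of 0.015 (adjusted p = 0.0514) and was 149 RPKTM and past the threshold without RevDKO ZT22 replicate 2.

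The ratio of Nr1d1 to Nr1d2 within a library moved as well. On the log2 scale it was 0.93 higher in RevDKO than in Control and 0.84 higher in RevScapTKO, each with an adjusted p of 0.0327 in an exact permutation test within time points (160000 arrangements, 24 ratios adjusted together). The RevDKO call was lost without Control ZT4 replicate 1, Control ZT22 replicate 1 or 3 or RevDKO ZT4 replicate 3, with values from 0.65 to 1.08, and the RevScapTKO call without Control ZT4 replicate 1, with values from 0.72 to 0.92.

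Of the Thra rows, the long one, which overlaps Nr1d1, was higher in both knockouts, and the short one, which does not, showed no difference past the threshold. Thra long measured 36.1, 71.0 and 83.1 RPKTM at ZT4 in Control hepatocytes, and 32.7, 23.5 and 29.6 at ZT10. It measured 27.4, 35.8 and 25.1 RPKTM at ZT16, and 17.9, 29.97 and 27.5 at ZT22. The highest Control values, 71.0 and 83.1, came from the 2 libraries in which Nr1d1 was also highest. In RevDKO the libraries held 80.7, 53.9 and 142 RPKTM at ZT4, and 116, 49.9 and 47.4 at ZT10. They held 38.6, 33.7 and 43.1 RPKTM at ZT16, and 36.5, 42.4 and 46.7 at ZT22. The lowest RevDKO library at ZT10 was above the highest Control library at that time, as was the lowest at ZT22. The differences at these times did not pass the threshold (limma adjusted p of 0.141 and 0.58). How many of all transcripts separated in this way at single times was not counted. In RevScapTKO the 12 libraries lay between 34.5 and 92.7 RPKTM, and the highest of these was at ZT22.

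Thra short lay between 18.02 and 34.6 RPKTM in the 12 Control libraries, between 22.1 and 39.5 in RevDKO and between 19.4 and 39.8 in RevScapTKO. The 3 ranges over all times overlapped. At ZT4, however, the RevDKO (22.1 to 24.4 RPKTM) and RevScapTKO libraries (22.1 to 26.9) lay below those of Control (27.5 to 29.3). At ZT10 those of RevScapTKO (29.97 to 36.2) lay above those of Control (19.6 to 29.4). None of these differences passed the threshold (limma adjusted p of 0.809, 0.659 and 0.329 in the order given). How many of all transcripts separated in this way was not counted. Over the day Thra long was 0.70 higher in RevDKO (SE 0.18, 1.62-fold, limma adjusted p = 0.0155) and 0.75 higher in RevScapTKO (SE 0.18, 1.68-fold, limma adjusted p = 0.00157). For Thra short the differences were 0.12 (SE 0.12, limma adjusted p = 0.682) and 0.17 (SE 0.12, limma adjusted p = 0.287). The rise of Thra long in RevScapTKO was 0.54 and not past the threshold with the macrophage marker score as a covariate (limma adjusted p = 0.236). Neither row differed between RevScapTKO and RevDKO past the threshold (0.05 each, limma adjusted p = 0.869 and 0.814). At single times Thra long passed the threshold at ZT22 in RevScapTKO, where it was 1.28 higher, 2.42-fold (limma adjusted p = 0.0401). That call was lost without any of the 3 Control libraries of ZT22 or RevScapTKO ZT22 replicates 2 or 3, with values from 0.98 to 1.68 and a limma adjusted p of up to 0.192, and also with a pseudocount of 10, no filter or the marker covariate.

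The difference between the Thra rows was tested within libraries. The log2 ratio of long to short was 0.57 higher in RevDKO than in Control (exact permutation p = 0.0028, adjusted p = 0.0168) and 0.58 higher in RevScapTKO (exact permutation p = 0.00164, adjusted p = 0.0168). In Control the ratio was 1.06 ± 0.68 at ZT4 and 0.07 ± 0.17 at ZT22 (SD, n = 3 each, log2 scale). In RevDKO it was 1.84 ± 0.76 at ZT4 and 0.32 ± 0.48 at ZT22, and in RevScapTKO 1.21 ± 0.49 and 1.09 ± 0.51 (SD, n = 3 each). The ratio was above 0 on average at all 4 times in each genotype. The log2 ratio of Nr1d1 to Thra short was 1.427 higher in RevDKO (adjusted p = 0.0132, exact permutation test) and 1.62 higher in RevScapTKO (adjusted p = 0.0168), and its ratio to Thra long was 0.85 higher (adjusted p = 0.0443) and 1.04 higher (adjusted p = 0.0327). The RevDKO call for the ratio to Thra long was lost in 15 of 24 choices of 1 library left out, with values from 0.74 to 0.96.

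Across the 12 libraries of a genotype, which share their times of day, the long Thra row followed Nr1d1 in RPKTM. Pearson's r was 0.95 in Control, 0.97 in RevDKO and 0.78 in RevScapTKO, with Spearman's rho of 0.71, 0.91 and 0.69. Without the 2 libraries farthest from the median of Nr1d1, r was 0.43, 0.90 and 0.73, so that the Control relation rested on those libraries. For each RPKTM of Nr1d1, the fitted line for Thra long rose by 0.157 RPKTM in Control libraries, by 0.308 in those of RevDKO and by 0.232 in those of RevScapTKO, from an intercept of 22.4, 18.5 and 26.5 RPKTM. For Thra short, r was 0.20, -0.37 and 0.10. These values are descriptions over libraries that fall into time groups, and no p is given. The part of reads from the opposite strand in the level of Thra long was not tested.

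**Figure D3:**
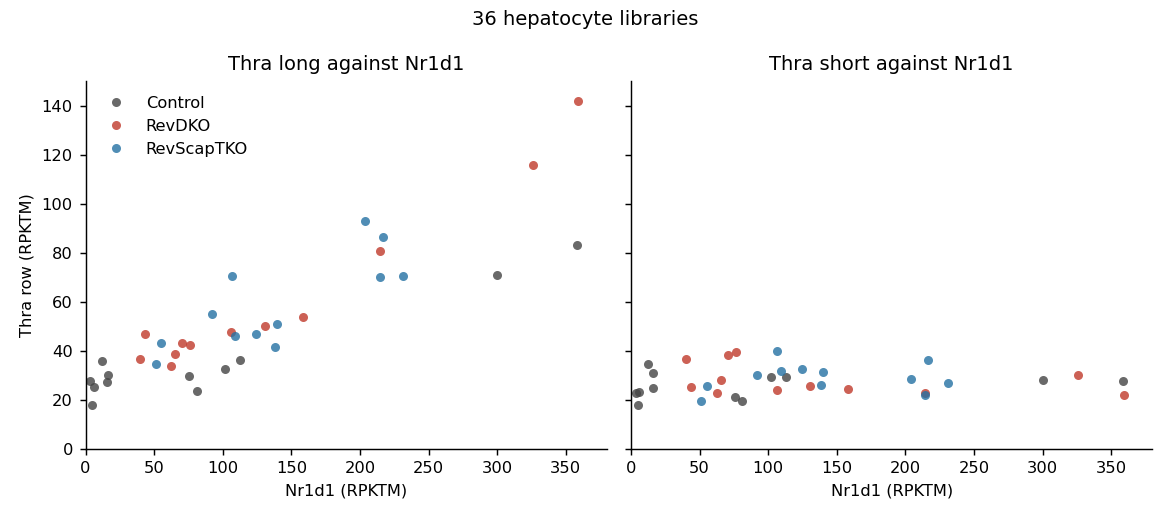
Thra long and Thra short against Nr1d1, both in RPKTM, with 1 point for each of the 36 hepatocyte libraries, 12 of each genotype. Thra long is highest, 142 RPKTM, in the library with the highest Nr1d1, while Thra short stays between 18.02 and 39.8 RPKTM.

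The shape of the daily rhythm changed most for Nr1d1. Its time point means in hepatocytes ran from 257 RPKTM at ZT4 to 8.28 at ZT22 in Control, a ratio of 31.0. In RevDKO they ran from 244 to 53.2 RPKTM at the same times, a ratio of 4.58. In RevScapTKO they ran from 195 RPKTM at ZT4 to 96.3 at ZT16, a ratio of 2.02. The fitted 24 h curve had a peak-to-trough difference of 5.53 log2 units in Control, 2.45 in RevDKO and 1.14 in RevScapTKO. That in RevScapTKO was 4.39 log2 units smaller than in Control (limma test of the cosine and sine terms, adjusted p = 0.00356), among 0.213% of transcripts called. For RevDKO against Control, where 0.152% were called, the change was -3.08 log2 units with an unadjusted p of 0.000546 and an adjusted p of 0.149 by limma. It passed the threshold without Control ZT4 replicate 1 (limma adjusted p = 0.041).

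Nr1d2 had a peak-to-trough difference of 2.90 log2 units in Control, 1.70 in RevDKO and 0.39 in RevScapTKO. The change in RevScapTKO, -2.51, did not pass the threshold in the fit of all 3 genotypes (limma adjusted p = 0.104) and did with only RevScapTKO and Control in the fit (limma adjusted p = 0.0177). The change in RevDKO was -1.20 (limma adjusted p = 1) and passed it only without RevDKO ZT22 replicate 2, with -1.97 (limma adjusted p = 0.0476). Thra long had peak-to-trough differences of 1.03, 1.30 and 0.38 log2 units in these genotypes and Thra short of 0.06, 0.45 and 0.32, with no change past the threshold. For RevScapTKO against RevDKO limma called 0% of transcripts as changed in rhythm, and 4.92% had an unadjusted p under 0.05, with no member among them.

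Rhythms within a genotype were called with JTK_CYCLE, a rank test for 24 h patterns, in which the series of 12 libraries was entered 2 times in a row. Entering it again lowers each p without adding data. In Control hepatocytes Nr1d1 (adjusted p = 0.00126, exact) with a peak at ZT7 and Nr1d2 (adjusted p = 2.71e-05, exact) with a peak at ZT10 were called, and Thra long was not (adjusted p = 0.0841). In RevDKO Nr1d1, Nr1d2 and Thra long were called with the same exact adjusted p of 0.00126 and a peak at ZT7. The limma F test of the 24 h terms did not call Thra long there (adjusted p = 0.0684). In RevScapTKO none of the 4 rows was called (adjusted p of 0.113 for Nr1d1, 0.150 for Nr1d2, 1 for Thra long and 0.527 for Thra short), and by limma none had an unadjusted p under 0.05 either. The shares of all transcripts called were 23.3%, 22.8% and 13.7%. Entered once, the series gave 2.46%, 2.36% and 0.702%, and of the members only Nr1d2 in Control was called (exact adjusted p = 0.00979). Entered once, a pattern that peaks midway between sampled times cannot reach an adjusted p below 0.0697, which was the value of Nr1d1 in Control and RevDKO, so its lost call says nothing of stability. Without 1 library of RevScapTKO the adjusted p of Nr1d1 there ran from 0.0182 to 0.296.

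In LMs, which were not the target of the deletion, no member differed between genotypes past the threshold. Control LMs held 18.1, 96.2 and 155 RPKTM of Nr1d1 at ZT4, and 24.8, 31.8 and 40.7 at ZT10. They held 19.4, 5.57 and 9.53 RPKTM at ZT16, and 2.85, 13.8 and 7.40 at ZT22. RevDKO LMs held 31.1, 42.9 and 135 RPKTM at ZT4, and 92.9, 80.4 and 58.8 at ZT10. At ZT16 they held 24.7, 28.3 and 28.3 RPKTM, and at ZT22 6.90, 12.2 and 8.05. At ZT10 and ZT16 the RevDKO libraries lay above those of Control, and at ZT4 and ZT22 they overlapped. Single times were not tested in LMs, and how many of all transcripts separated in this way was not counted. In RevScapTKO LMs the values lay between 26.8 and 59.5 RPKTM at ZT4, between 31.6 and 45.3 at ZT10 and between 27.8 and 51.9 at ZT16. At ZT22 they were 12.4, 17.7 and 76.2 RPKTM, the last in the library with 13.7% Alb. Nr1d2 ranged from 14.2 to 105 RPKTM in Control LMs, from 25.2 to 106 in RevDKO LMs and from 14.1 to 104 in RevScapTKO LMs.

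Averaged over the day, Nr1d1 in LMs was 0.67 from Control in RevDKO (SE 0.32, limma adjusted p = 0.335) and 0.75 in RevScapTKO (SE 0.32, limma adjusted p = 0.199). Nr1d2 was -0.09 and 0.03 from Control, and Thra long 0.64 (limma adjusted p = 0.245) and 0.44 (limma adjusted p = 0.357). The share of transcripts called was 0.441% for RevDKO against Control, 3.57% for RevScapTKO against Control and 2.41% for RevScapTKO against RevDKO. Limma called 0 of the 4 member rows in these 3 comparisons, and 2, 1 and 0 of them had an unadjusted p under 0.05. For rhythms limma called 0% of transcripts in each comparison, with an unadjusted p under 0.05 in 5.61%, 1.474% and 3.67% of them. Whether an effect in hepatocytes differed from that in LMs was not tested, since the cell types stand in tables normalized apart.

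Within genotypes JTK_CYCLE called Nr1d1 (exact adjusted p = 0.00313), Nr1d2 (9.16e-05) and Thra long (0.0107) in Control LMs, and the same 3 rows in RevDKO LMs (exact adjusted p of 0.00028, 0.0107 and 0.00313). It called none in RevScapTKO LMs, where by limma none had an unadjusted p under 0.05 and where Nr1d1 had time point means from 35.4 to 40.4 RPKTM, a ratio of 1.14, against 11.2 in Control and 8.55 in RevDKO. That ratio rests on a ZT22 mean of 35.4 ± 35.4 RPKTM (SD, n = 3), from values of 12.4, 17.7 and 76.2. The last came from the Alb-rich library, and without any 1 library Nr1d1 was still not called there by JTK_CYCLE. The shares of transcripts called were 12.5%, 19.9% and 9.86%, and 0.479%, 0.841% and 0.46% with the series entered once. Of the members, the series entered once gave a call only for Nr1d2 in Control LMs and Nr1d1 in RevDKO LMs. The limma F test of the 24 h terms did not call Nr1d1, Nr1d2 or Thra long in Control LMs (adjusted p of 0.0643, 0.196 and 0.518). In RevDKO LMs it called only Nr1d1 (adjusted p = 0.0177). The log2 ratio of Thra long to Thra short was 0.89 higher in RevDKO LMs than in Control (adjusted p = 0.0344, exact permutation test). RevDKO ZT16 replicate 1, in which Thra short was listed at 0, enters that value. Leaving out 1 library at a time gave 0.57 to 1.07, and 7 of these choices lost the call. Thra long followed Nr1d1 in LMs too, with r of 0.83, 0.93 and 0.89 over the 12 libraries of Control, RevDKO and RevScapTKO (rho 0.62, 0.81 and 0.80). Without the 2 farthest libraries r was 0.38, 0.78 and 0.66.

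**Figure D4:**
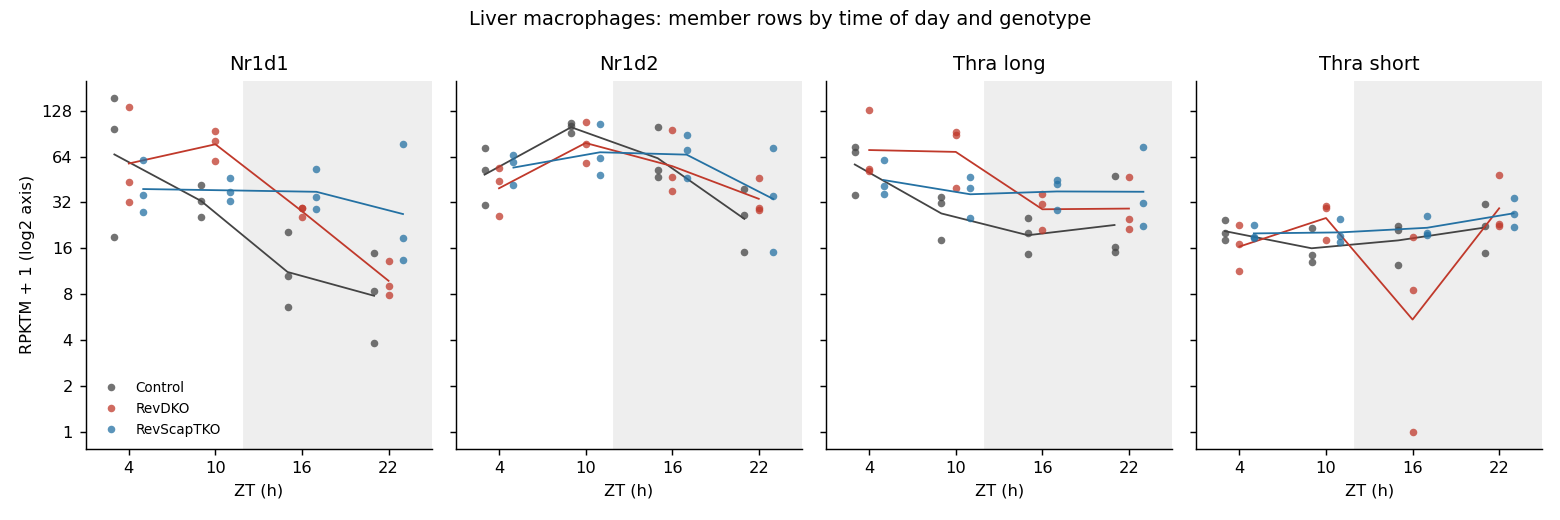
The 4 rows in LMs against zeitgeber time in hours, on a log2 axis of RPKTM + 1, with 3 libraries as points for each genotype and time, lines through the means of the plotted log2 values and grey for the dark. The mean of Nr1d1 in RPKTM runs from 89.6 at ZT4 to 8.03 at ZT22 in Control and from 35.4 to 40.4 in RevScapTKO. The RevScapTKO mean at ZT22, 35.4, comes from values of 12.4, 17.7 and 76.2, the last in an Alb-rich library.

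In ScapKO hepatocytes, described only within their own table, Nr1d1, Nr1d2 and Thra long were rhythmic. Nr1d1 measured 258, 399 and 641 RPKTM at ZT4, and 274, 199 and 225 at ZT10. It measured 33.2, 40.3 and 47.4 RPKTM at ZT16, and 68.6, 29.2 and 34.9 at ZT22. All 6 libraries of the light stood above all 6 of the dark, and the time point means had a ratio of 10.7. Nr1d2 measured 513 to 742 RPKTM at ZT4 and 581 to 658 at ZT10, and it fell to between 83.2 and 147 at ZT22, a ratio of 5.31 between time point means. Thra long fell from between 93.8 and 119.7 RPKTM at ZT4 to between 50.8 and 53.8 at ZT16, while Thra short lay between 28.5 and 71.7 throughout. JTK_CYCLE called Nr1d1 (exact adjusted p = 0.00126), Nr1d2 and Thra long (0.00028 each) among 14.2% of transcripts, and 1.88% with the series entered once. The fitted peak-to-trough differences were 4.12 log2 units for Nr1d1, 2.63 for Nr1d2, 1.09 for Thra long and 0.22 for Thra short. In 1 ScapKO hepatocyte library, ZT16 replicate 3, Xist reached 130 RPKTM beside Y-linked genes with a sum of 1115, and it entered these values. Without any 1 library these calls held.

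In ScapKO LMs Nr1d1 measured 80.1, 162 and 89.3 RPKTM at ZT4, and 136, 144 and 112 at ZT10. It measured 87.4, 71.7 and 75.8 RPKTM at ZT16, and 31.3, 79.0 and 16.7 at ZT22. Nr1d2 was highest at ZT16, with 371, 598 and 679 RPKTM, and lowest at ZT22, with 199, 152 and 156. JTK_CYCLE called both (exact adjusted p of 0.00201 and 0.00313) among 14.4% of transcripts, and neither with the series entered once, when 1.05% were called. The limma F test called neither (adjusted p = 0.469 each). Thra long (98.1 to 225 RPKTM) and Thra short (69.6 to 181 RPKTM) were not called, and r between Thra long and Nr1d1 was 0.27 over these 12 libraries (rho 0.30, and r 0.45 without the 2 farthest).

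**Figure D5:**
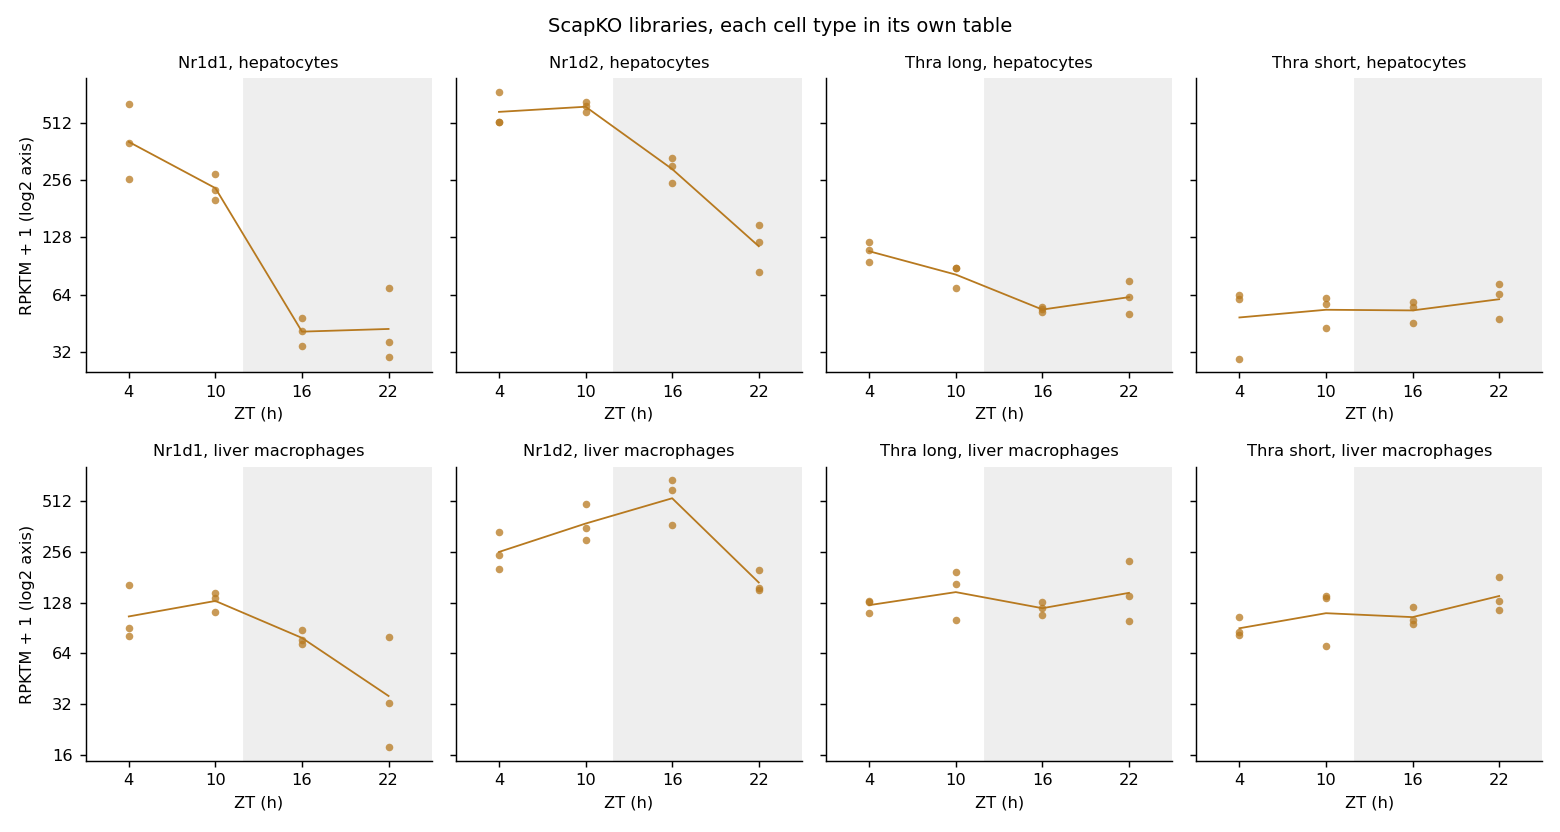
The 4 rows in the ScapKO tables against zeitgeber time in hours, on a log2 axis of RPKTM + 1, with 3 libraries as points for each cell type and time, lines through the means of the plotted log2 values and grey for the dark. Hepatocyte Nr1d1 has a ratio of 10.7 between its highest and lowest time point, and the LM values come from a table normalized apart.

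The other genes of the clock loop were counted from a list of 22, of which 21 could be tested in hepatocytes. In RevDKO 6 were higher than Control, 1 was lower and 14 were not called, beside 4.14% of all transcripts called and 1.92% higher, and their median difference was 0.20 against 0.00 over all transcripts. The activator genes of the loop were among those that rose: Arntl by 1.83 (limma adjusted p = 1.72e-11), Clock by 0.64 (limma adjusted p = 0.00308) and Npas2, a paralogue of Clock, by 4.12 (limma adjusted p = 1.72e-11). Cry1, a repressor of BMAL1 and CLOCK, rose by 1.17 (limma adjusted p = 1.12e-06), and Nfil3, which represses D-box genes, by 1.309 (limma adjusted p = 1.23e-08). Bhlhe41, another repressor, rose by 0.88 (limma adjusted p = 0.0461). Arntl measured 6.49 ± 3.60 RPKTM at ZT10 in Control and 128 ± 15.1 in RevDKO, and 116 ± 3.52 and 142 ± 4.68 at ZT22 (SD, n = 3 each). It was thus higher in RevDKO at the time when its Control level was lowest. The rhythms of Arntl, Cry1 and Nfil3 shrank in RevDKO by 4.04, 2.42 and 1.01 log2 units (limma adjusted p of 9.46e-08, 0.00018 and 0.00285). These were 3 of the 21, beside 0.152% of all transcripts called as changed in rhythm. In RevScapTKO against Control 7 of the 21 were higher, 4 lower and 10 not called, beside 35.1% of all transcripts called and 18% higher. In that comparison 4 rhythms of the list shrank, beside 0.213% of all transcripts called as changed in rhythm. In LMs 20 could be tested. In RevDKO 3 of them were higher (Npas2, Cry1 and Nfil3, named after their values were seen), beside 0.441% of all LM transcripts called. In RevScapTKO against Control 2 were higher and 1 was lower, beside 3.57% of all LM transcripts called. With a hepatocyte marker score as a covariate, the LM transcripts called numbered 117 in RevDKO (from 119) and 3550 in RevScapTKO (from 963). The values of these list genes in that fit are not given here. The part of hepatocyte RNA in their LM differences was not otherwise tested.

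Of 20 genes of thyroid hormone signaling and of the corepressor complex that REV-ERBs share with thyroid receptors, 17 could be tested in hepatocytes. In RevDKO none was higher and 1 was lower, beside 4.14% of all transcripts called. The lower one was Dio1, which activates thyroid hormone by removing iodine. It fell by 1.74 (limma adjusted p = 4.56e-07), from 366 ± 27.1 RPKTM in Control at ZT10 to 125 ± 34.0 in RevDKO (SD, n = 3 each). The list's median difference was -0.05 against 0.00 over all transcripts, and limma called 0 of its rhythms as changed, with an unadjusted p under 0.05 for 2. Of all transcripts 0.152% were called as changed in rhythm and 4.93% had such an unadjusted p. In RevScapTKO against Control 2 of the 17 were higher and 3 lower, beside 35.1% of all transcripts called. In LMs limma called 0 of 17 in RevDKO, with an unadjusted p under 0.05 for 3. Of all LM transcripts 0.441% were called and 14.0% had such an unadjusted p.

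Of 10 other genes within 100 kb of Nr1d1, 7 could be tested. In RevDKO 1 of the 7 was called, Thra through its long row, beside 4.14% of all transcripts. In RevScapTKO 2 of the 7 were called beside 35.1% of all transcripts, Thra through its long row and Psmd3, a proteasome subunit gene, which fell by 0.34 (limma adjusted p = 0.00132). Psmd3 was named after its value was seen. Around Nr1d2, limma called 0 of the 3 genes (Nkiras1, Rpl15 and Ube2e1) in either comparison, for mean level or rhythm. Their adjusted p for mean level was between 0.34 and 0.916 in RevDKO and between 0.0555 and 0.34 in RevScapTKO.

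The genes whose pattern was most like each row were found by Pearson's r of log2(RPKTM + 1) over the 36 hepatocyte libraries of 3 genotypes, among 13324 genes for Nr1d1 and Thra long and 13325 for Nr1d2 and Thra short, leaving out overlapping ones. For Nr1d1 they were Mrnip (0.88), Klhdc7a (0.80), Caprin2 (0.79), Dbp (0.78) and Tns2 (0.78). For Nr1d2 they were Nr1d1 (0.77), Bhlhe41 (0.76), Dbp (0.75), Zbtb10 (0.73) and Jade1 (0.73). Dbp, a transcription factor gene that BMAL1 and CLOCK drive, was on both lists. For Thra long they were Fmn2 (0.79), B930025P03Rik (0.78), Cpeb4 (0.77), D630024D03Rik (0.76) and Neb (0.73). For Thra short no gene came above 0.55, the value of Wdfy2, and it was followed by Dcbld2 (0.54), Bmp10, Ssbp2 and Lama5 (0.53 each). The libraries share genotype and time of day, so these values carry no p.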

How the data were processed

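Hepatocytes and LMs were profiled by the authors by RNA sequencing of ribosomal RNA depleted, stranded libraries. Reads were aligned by the authors to mm9 (STAR), and HOMER counted those on RefSeq transcripts (versions not given in the sources used here). The deposited values are RPKM multiplied by 10 (RPKTM), quantile normalized by the authors within each of 4 tables, which removes depth and hides any overall shift. Whether counting used the strand is not given. Samples were grouped by title.

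Rows with more than 5 RPKTM in at least 3 libraries were fitted with limma 3.58.1 (R 4.3.3, trend) on log2(RPKTM + 1), with 1 mean for each genotype and time in the 36 libraries of a cell type. Fold changes are on that scale, which understates low rows. P-values were adjusted by Benjamini and Hochberg over all rows, with a threshold of 0.05. JTK_CYCLE (periods of 18 and 24 h) was written anew in Python 3.11.15, with 7 patterns tried, over 5 RPKTM in at least 2 libraries, and a ratio over 1.5 between time point means. Entering the series 2 times follows the study's methods. Ratios and light or dark levels were tested by exact permutation within time points. The limma fit, JTK_CYCLE and the permutation within time points were tested on simulated data. Alternatives comprised pseudocounts, filters, samples in the fit, marker covariates, a replicate block and leaving out each library. The members and lists were chosen with earlier results of these data known. Named genes are the members, list genes called in RevDKO hepatocytes, neighbours within 100 kb and the 5 genes most alike, and 1 gene of the clock list is not reported here. Replicates are biological per the study's methods. Precision rests on the spread between replicates alone.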

Additional observations from a re-analysis of the deposited data

Results flagged for a closer look

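In hepatocytes 4 rhythms differed between genotypes by a direct test of the change (limma test of the cosine and sine terms, all 3 genotypes in the fit). The peak-to-trough difference of Nr1d1 was -4.39 log2 units in RevScapTKO relative to Control (5.53 in Control and 1.14 in RevScapTKO). In RevDKO relative to Control it was -4.04 for Arntl, -2.42 for Cry1 and -1.01 for Nfil3. Of all transcripts 0.213% were called as changed in rhythm in RevScapTKO against Control and 0.152% in RevDKO against Control.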

How the results depend on the processing

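Under 748 values of 160 results from other settings, 688 kept direction and side of the threshold, 41 lost a call, 5 gained one and 14 changed sign with neither value called. With 1 library left out the same counts were 3003, 57, 20 and 88 of 3168. No called value turned its direction. Except where stated, the cause was not tested. With the marker covariate the rises in RevScapTKO hepatocytes were 0.84 (Nr1d2) and 0.54 (Thra long), not called, and LM Nr1d2 was 0.034 in RevDKO and -0.21 in RevScapTKO. Without the 3 Alb-rich LM libraries Nr1d2 was 0.0701 in RevDKO. With only the compared genotypes in the fit, the rhythm change of Nr1d2 in RevScapTKO hepatocytes was called (-2.51). With the series entered once, JTK_CYCLE gave an adjusted p of 0.0697 for Nr1d1 in Control, RevDKO and ScapKO hepatocytes and for Nr1d2 and Thra long in RevDKO hepatocytes, of 0.112 for Nr1d1 in Control LMs, Thra long in RevDKO LMs and Nr1d2 in ScapKO LMs, of 0.214 for Thra long in Control LMs and Nr1d2 in RevDKO LMs, and of 0.0906 for Nr1d1 in ScapKO LMs, none of them called. The limma F test gave 0.0684 for Thra long in RevDKO hepatocytes, 0.0643, 0.196 and 0.518 for Nr1d1, Nr1d2 and Thra long in Control LMs, 0.218 and 0.0849 for Nr1d2 and Thra long in RevDKO LMs, and 0.469 for Nr1d1 and Nr1d2 in ScapKO LMs. With a pseudocount of 10 the rise of the Thra long to short ratio in RevDKO LMs was 0.54 (adjusted p = 0.0555, exact permutation test).

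Whether replicate numbers pair the libraries was not settled. Correlations of same-numbered deviations had a median of 0.043 in hepatocytes and 0.084 in LMs, against -0.030 and -0.042 for other numbers. They were above 0.1 in 12 of 36 hepatocyte and 16 of 36 LM pairs. The best match was the library of the same number in 19 and 20 of 36 comparisons. With the replicate block the called hepatocyte transcripts went from 1086 to 1216 (RevDKO) and from 9197 to 9507 (RevScapTKO) for mean levels and from 40 to 36 and 56 to 50 for rhythms, and LM calls from 119 to 176 and from 963 to 1381. The block allows no exact p below 2 in 64, so that the dark differences of 49.8 and 98.6 RPKTM (Nr1d1, RevDKO and RevScapTKO), 225 and 106 (Nr1d2, RevScapTKO against Control and RevDKO) and 28.3 (Thra long, RevScapTKO) had an adjusted p of 0.125 and that of 12.9 (Thra long, RevDKO) of 0.136. The Thra ratio in RevDKO LMs, 0.89, had 0.0605. The block also ended the hepatocyte calls for the ratio of Nr1d1 to Nr1d2 (0.0605 in RevDKO, 0.0737 in RevScapTKO), to Thra long (0.102, 0.101) and, in RevScapTKO, to Thra short (0.0605).

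Leaving out 1 library gave these ranges, among others given beside their results. The RevDKO difference of Nr1d1 was 2.167 to 2.79 at ZT16 and 2.35 to 3.30 at ZT22, and its rhythm change -3.48 to -2.81. That of Nr1d2 was 0.52 to 0.83 for the mean, -1.97 to -0.79 for rhythm and 103 to 149 RPKTM in the dark, where RevScapTKO was 75.5 to 123 RPKTM above RevDKO. Thra long in the dark was 11.1 to 14.5 RPKTM higher in RevDKO and 21.6 to 36.1 in RevScapTKO, and at ZT22 its RevScapTKO difference was 0.98 to 1.68. Its dark differences were called with all libraries (exact permutation test, adjusted p of 0.04 and 0.024). These calls were lost in 6 of 12 choices for RevDKO and in 3 of 12 for RevScapTKO. The RevDKO ratio of Nr1d1 to Thra long was 0.74 to 0.96 and that to Nr1d2 0.65 to 1.08. With no call at any choice, the rhythm change of Thra long in RevDKO was -0.088 to 0.56 and LM Nr1d2 in RevScapTKO was -0.11 to 0.18. JTK_CYCLE adjusted p ran from 0.0182 to 0.296 (Nr1d1, RevScapTKO) and from 0.00754 to 0.509 (Thra long, Control) in hepatocytes, and in LMs from 0.00171 to 0.0839 (Nr1d2, RevDKO), 0.0047 to 0.0839 (Thra long, Control) and 0.00754 to 0.296 (Thra short, RevScapTKO). The LM Thra ratio ran from 0.57 to 1.07.

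Counts of transcripts called moved by more than 1.5 times in these cases. With 1 row per gene, hepatocyte mean levels gave 590 (RevDKO against Control, from 1086), 4789 (RevScapTKO against Control, from 9197) and 3498 (RevScapTKO against RevDKO, from 6791), where fewer rows were tested. With the marker covariate the RevScapTKO counts were 1499 and 621. Rhythm changes in RevDKO numbered 70 with only the compared genotypes and 61 with the covariate (from 40), and in RevScapTKO 22 with only the compared genotypes and 25 with 1 row per gene (from 56). In LMs the RevDKO count fell from 119 to between 66 and 76, that of RevScapTKO against Control moved from 963 to 3550, 565 or 524, and that against RevDKO from 652 to 2180 or 419.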
